A study of Mus musculus with 7 samples.

Results

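Expression of 10 genes of threonine, serine and one-carbon metabolism was measured by RNA-Seq in 7 libraries of mouse cells that had been reprogrammed to, or kept in, pluripotent states. The genes were taken by name, *Tdh* and *Gcat* for threonine breakdown, *Gldc* for glycine cleavage, *Shmt1* and *Shmt2* for the exchange of serine and glycine, *Mthfd2* and *Mthfd1l* for mitochondrial folate, and *Phgdh*, *Psat1* and *Psph* for serine synthesis. Each symbol matched 1 Ensembl identifier, so that 10 of the 29267 genes in the deposited tables are described, and all 10 were detected in all 7 libraries.

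The cells were mouse embryonic fibroblasts (MEFs) of the OG2 background, which carry the Oct4GFP transgene. This is a green fluorescent reporter under the control of the *Oct4* promoter and distal enhancer. The paper takes its activity as a trait of the naive pluripotent state, at least in part. All fibroblasts were given *c-Myc*, *Klf4*, *Oct4* and *Sox2* by retroviral infection and were then kept in mES medium, which holds serum, LIF and vitamin C, or in 5C medium, which is serum-free and holds N2 supplement, bFGF, LIF, vitamin C and β-mercaptoethanol. Sorting by the reporter gave mES-Oct4GFP+ and mES-Oct4GFP- cells from the former, and 5C-Oct4GFP+ and 5C-Oct4GFP- cells from the latter (0 passages). 5C-Oct4GFP+ cells were moved to naive medium, with LIF and the inhibitors CHIR99021 and PD0325901, to give 5C-Oct4GFP+ (naive) cells, or to primed medium, with bFGF and activin A, to give 5C-Oct4GFP+ (primed) cells. The labels give 20 passages for each, whereas the study's text also describes cells of both names after days in the new medium, so that the time of culture is uncertain. The paper reports that the cells in primed medium lost the fluorescence. The name 5C-Oct4GFP+ (primed) thus gives their origin and not their reporter state. Absence of the reporter alone does not mean that cells were not pluripotent. R1 ESCs-primed (20 passages) were made from R1, an embryonic stem cell (ESC) line, and served as the reference for the primed state, which was induced on MEF feeder cells and maintained with CHIR99021 and IWR1. Each group was 1 library, so there were no replicates and no test between groups. Medium, passage and cell state changed together in the conversions and cannot be told apart.

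Threonine dehydrogenase, the product of *Tdh*, oxidises threonine in mitochondria, and the ligase encoded by *Gcat* splits the product into glycine and acetyl-CoA. Glycine is then broken down by the glycine cleavage system, or serine is converted to glycine by the SHMT enzymes, and both routes load one-carbon units onto folate for the synthesis of purines, thymidylate and methyl donors. Mouse ESCs are known for high *Tdh* and for a need for threonine in the medium, whereas many other proliferating cells draw one-carbon units from serine.

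Levels are given as TPM, a share of all transcripts in a library, which the authors' RSEM run corrected for effective length, so that levels can be compared between genes as well as between libraries. Differences are differences of log2(TPM + 1), a scale that understates changes of genes with low values, and a gene was called when the difference was 2-fold or more and its TPM was at least 1 in either library. Brackets after a ratio of TPM hold the exact 95% Clopper-Pearson interval from the estimated read counts, which covers counting error only and not the spread between cultures. The libraries held between 6108252 and 11496615 estimated reads, and the lowest count of any of the 10 genes was 34, for *Tdh* in 5C-Oct4GFP+ (primed). Estimated counts were whole numbers in all 7 libraries for 9 of the 10 genes. *Shmt1* had a whole count in 0 libraries, since RSEM divided some of its reads with other transcripts, and its level is less certain for that reason.

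The labels were compared with marker genes. *Zfp42* and *Esrrb*, markers of the naive state, had 337 and 246 TPM in mES-Oct4GFP+, 219 and 230 TPM in 5C-Oct4GFP+, and 355 and 207 TPM in 5C-Oct4GFP+ (naive). They had at most 15.3 TPM in both Oct4GFP- libraries and both primed libraries, and *Zfp42* was listed at 0 in 5C-Oct4GFP+ (primed). *Fgf5*, a marker of the primed state, had 175 TPM in 5C-Oct4GFP+ (primed) and 139 TPM in R1 ESCs-primed against 0.09 TPM in 5C-Oct4GFP+ (naive) and 11.7 TPM in 5C-Oct4GFP+. It had 19.0 TPM in mES-Oct4GFP- and 18.1 TPM in 5C-Oct4GFP-. The 5 primed markers listed summed to 521 TPM in 5C-Oct4GFP+ (primed), 423 TPM in R1 ESCs-primed and 17.6 TPM in 5C-Oct4GFP+ (naive). In 5C-Oct4GFP+ they summed to 280 TPM, of which *Otx2* had 189 TPM. *Pou5f1*, the gene of *Oct4*, had 3640 TPM in mES-Oct4GFP-, above the other 6 libraries, and reads from the retrovirus and from the cell's own gene cannot be told apart. In RNA from many cells, fewer cells of a type and less RNA per cell cannot be told apart either.

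The genes lie on 8 chromosomes of the GRCm38 build, and all are protein-coding. *Tdh* is at chr14:63492347-63509092, *Gcat* at chr15:79030874-79038353, *Shmt1* at chr11:60788104-60811718, *Mthfd2* at chr6:83305691-83325908, *Phgdh* at chr3:98313170-98339990 and *Psph* at chr5:129765558-129787449. *Shmt2*, at chr10:127517123-127522444, and *Mthfd1l*, at chr10:3973118-4167081, share chromosome 10. *Gldc*, at chr19:30098447-30175429, and *Psat1*, at chr19:15904678-15947337, share chromosome 19.

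The 250 bases before the start site of the serine synthesis genes are shown because *Phgdh* and *Psat1* had their highest level in 5C-Oct4GFP+ (primed), and so did *Psph*, though within counting error of 5C-Oct4GFP-. *Gcat*, *Mthfd2* and *Mthfd1l* were also highest there, and their windows are not shown. RefSeq promoters (GRCm38.p6) matched 9 of the 10 genes in 10 windows, with *Tdh* unmatched. The windows are chr3:98339970-98340219 for *Phgdh*, chr19:15925060-15925309 for 1 of the start sites of *Psat1* and chr5:129787254-129787503 for *Psph*, all on the minus strand and written 5′ to 3′. Capitals mark the CCAAT box, read on either strand as CCAAT or ATTGG.
Phgdh: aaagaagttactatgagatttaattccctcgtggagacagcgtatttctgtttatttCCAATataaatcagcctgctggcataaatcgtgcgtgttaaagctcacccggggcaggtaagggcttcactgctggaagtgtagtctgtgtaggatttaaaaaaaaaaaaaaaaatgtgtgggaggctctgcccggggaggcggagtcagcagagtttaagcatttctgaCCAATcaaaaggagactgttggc
Psat1: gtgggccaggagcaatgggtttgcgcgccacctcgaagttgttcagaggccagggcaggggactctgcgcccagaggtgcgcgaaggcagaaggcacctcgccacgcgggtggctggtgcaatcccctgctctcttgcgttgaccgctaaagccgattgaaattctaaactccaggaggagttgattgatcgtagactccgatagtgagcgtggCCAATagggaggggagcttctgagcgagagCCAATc
Psph: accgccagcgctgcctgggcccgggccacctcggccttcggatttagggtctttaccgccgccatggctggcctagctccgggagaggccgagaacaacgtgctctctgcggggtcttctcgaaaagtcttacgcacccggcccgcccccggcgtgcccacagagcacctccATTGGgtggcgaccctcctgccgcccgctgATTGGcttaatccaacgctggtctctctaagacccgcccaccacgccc

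Motifs were searched on both strands from 250 bases before to 50 bases after each start site, and matches of different motifs were counted separately and may overlap. CCAAT, chosen after the windows had been seen, was present in 6 of the 9 genes and in 37.4% of the 32851 promoter windows of the RefSeq table. It had no match in *Gcat*, *Mthfd1l* and *Shmt2*, nor in the *Psat1* window that is not shown. TGATGNAA, the core of the element that Atf4 binds with C/EBP proteins, was present in 0 of the 9 genes and in 3.97% of all windows. CACGTG, the E-box, was present in 1 of the 9 genes, *Gcat*, and in 7.15% of all windows. A match is a description of these letters and not of a bound factor.

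*Tdh* varied most between libraries, and *Shmt2* least. The level of *Tdh* was 640 TPM in mES-Oct4GFP+ against 34.6 TPM in mES-Oct4GFP-, and 700.3 TPM in 5C-Oct4GFP+ against 481 TPM in 5C-Oct4GFP-, then 725 TPM in 5C-Oct4GFP+ (naive), 4.18 TPM in 5C-Oct4GFP+ (primed) and 18.4 TPM in R1 ESCs-primed. The libraries thus fell into 4 with a high level, 5C-Oct4GFP- among them, and 3 with a low level. The lowest of the high libraries was 13.9-fold (12.3 to 15.8) above the highest of the low libraries, and the whole range was 173.5-fold. By level, *Tdh* was the gene of rank 157 of all genes in 5C-Oct4GFP+, rank 261 in 5C-Oct4GFP- and rank 10844 in 5C-Oct4GFP+ (primed).

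*Gcat*, which acts on the product of *Tdh*, did not share this range. Its level was 67.4 TPM in mES-Oct4GFP+ against 26.2 TPM in mES-Oct4GFP-, and 73.6 TPM in 5C-Oct4GFP+ against 62.9 TPM in 5C-Oct4GFP-, then 62.9 TPM in 5C-Oct4GFP+ (naive), 93.2 TPM in 5C-Oct4GFP+ (primed) and 73.8 TPM in R1 ESCs-primed. mES-Oct4GFP- was lowest and 5C-Oct4GFP+ (primed) was highest, at 3.56-fold, and the intervals of the ratios between neighbours from R1 ESCs-primed down to 5C-Oct4GFP- all included 1. Libraries farther apart in this order did differ in part, with 5C-Oct4GFP- at 85.4% (76.5 to 95.3) of 5C-Oct4GFP+. The ratio of *Tdh* to *Gcat* was between 7.66 and 11.5 in the 4 libraries with high *Tdh*, 1.32 in mES-Oct4GFP-, 0.250 in R1 ESCs-primed and 0.0449 in 5C-Oct4GFP+ (primed). The transcript level for the first step of threonine breakdown was thus above that for the next step in 5 libraries and below it in both primed libraries. The activity of the enzymes was not measured.

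*Gldc* encodes the decarboxylase of the glycine cleavage system, which breaks glycine down and passes its carbon to folate. Its level was 46.0 TPM in mES-Oct4GFP+ against 19.6 TPM in mES-Oct4GFP-, and 144 TPM in 5C-Oct4GFP+ against 40.8 TPM in 5C-Oct4GFP-, then 38.8 TPM in 5C-Oct4GFP+ (naive), 52.6 TPM in 5C-Oct4GFP+ (primed) and 83.0 TPM in R1 ESCs-primed. 5C-Oct4GFP+ stood highest, 1.74-fold (1.63 to 1.86) above R1 ESCs-primed, the next library. *Amt*, which encodes another protein of the same system, was ordered otherwise, with 59.3 TPM in 5C-Oct4GFP+ against 110 TPM in mES-Oct4GFP+ and 123 TPM in 5C-Oct4GFP+ (naive). The ratio of *Gldc* to *Amt* was 0.315 in 5C-Oct4GFP+ (naive), 0.417 in mES-Oct4GFP+ and 0.916 in mES-Oct4GFP-, and between 1.76 and 2.43 in the 5C-Oct4GFP+, 5C-Oct4GFP- and both primed libraries. Like *Shmt1*, *Amt* had no whole count in any library, so its level and this ratio are less certain.

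*Shmt1* and *Shmt2* encode the cytosolic and the mitochondrial enzyme that convert serine to glycine and load one carbon onto folate. The level of *Shmt2* was 145 TPM in mES-Oct4GFP+ against 165 TPM in mES-Oct4GFP-, and 166 TPM in 5C-Oct4GFP+ against 153 TPM in 5C-Oct4GFP-, then 177 TPM in 5C-Oct4GFP+ (naive), 168 TPM in 5C-Oct4GFP+ (primed) and 169.6 TPM in R1 ESCs-primed. The highest was 1.22-fold (1.13 to 1.32) above the lowest, and 5 of the 6 ratios between neighbours in this order had an interval that included 1. The level of *Shmt1* was 191 TPM in mES-Oct4GFP+ against 35.3 TPM in mES-Oct4GFP-, and 118 TPM in 5C-Oct4GFP+ against 72.0 TPM in 5C-Oct4GFP-, then 191 TPM in 5C-Oct4GFP+ (naive), 102 TPM in 5C-Oct4GFP+ (primed) and 96.4 TPM in R1 ESCs-primed. *Shmt1* was therefore above *Shmt2* in mES-Oct4GFP+ and 5C-Oct4GFP+ (naive), with ratios of 1.31 and 1.08, and below it in the other 5 libraries, with ratios from 0.213 in mES-Oct4GFP- to 0.712 in 5C-Oct4GFP+.

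*Mthfd2* encodes the mitochondrial dehydrogenase and cyclohydrolase that oxidises folate-bound carbon, and *Mthfd1l* encodes the synthetase that releases it as formate. The level of *Mthfd2* was 65.1 TPM in mES-Oct4GFP+ against 23.3 TPM in mES-Oct4GFP-, and 94.6 TPM in 5C-Oct4GFP+ against 67.2 TPM in 5C-Oct4GFP-, then 71.8 TPM in 5C-Oct4GFP+ (naive), 118 TPM in 5C-Oct4GFP+ (primed) and 90.5 TPM in R1 ESCs-primed. The level of *Mthfd1l* was 43.4 TPM in mES-Oct4GFP+ against 40.7 TPM in mES-Oct4GFP-, and 63.5 TPM in 5C-Oct4GFP+ against 60.3 TPM in 5C-Oct4GFP-, then 38.4 TPM in 5C-Oct4GFP+ (naive), 103 TPM in 5C-Oct4GFP+ (primed) and 81.5 TPM in R1 ESCs-primed. Both were highest in 5C-Oct4GFP+ (primed), whereas *Mthfd2* was lowest in mES-Oct4GFP- and *Mthfd1l* in 5C-Oct4GFP+ (naive), where it did not differ from mES-Oct4GFP- beyond counting error.

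*Phgdh* encodes the dehydrogenase that takes the first step from glycolysis to serine. Its level was 85.0 TPM in mES-Oct4GFP+ against 122 TPM in mES-Oct4GFP-, and 121 TPM in 5C-Oct4GFP+ against 209 TPM in 5C-Oct4GFP-, then 82.3 TPM in 5C-Oct4GFP+ (naive), 261 TPM in 5C-Oct4GFP+ (primed) and 215 TPM in R1 ESCs-primed. The libraries with high *Phgdh* were both primed libraries and 5C-Oct4GFP-, and it was the one gene of the 10 that was higher in Oct4GFP- than in Oct4GFP+ cells by over 1.4-fold in both media. *Psat1*, the aminotransferase of the next step, had 196 TPM in mES-Oct4GFP+ against 92.2 TPM in mES-Oct4GFP-, and 168 TPM in 5C-Oct4GFP+ against 147 TPM in 5C-Oct4GFP-, then 208 TPM in 5C-Oct4GFP+ (naive), 357 TPM in 5C-Oct4GFP+ (primed) and 316 TPM in R1 ESCs-primed. *Psph*, the phosphatase of the last step, had 32.7 TPM in mES-Oct4GFP+ against 26.5 TPM in mES-Oct4GFP-, and 52.1 TPM in 5C-Oct4GFP+ against 53.7 TPM in 5C-Oct4GFP-, then 25.5 TPM in 5C-Oct4GFP+ (naive), 55.5 TPM in 5C-Oct4GFP+ (primed) and 39.1 TPM in R1 ESCs-primed. The ratio of *Psat1* to *Phgdh* was 2.53 in 5C-Oct4GFP+ (naive) and 2.31 in mES-Oct4GFP+, 0.754 and 0.702 in the Oct4GFP- libraries of mES and 5C medium, and between 1.37 and 1.47 in the other 3 libraries.

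**Figure D1:**
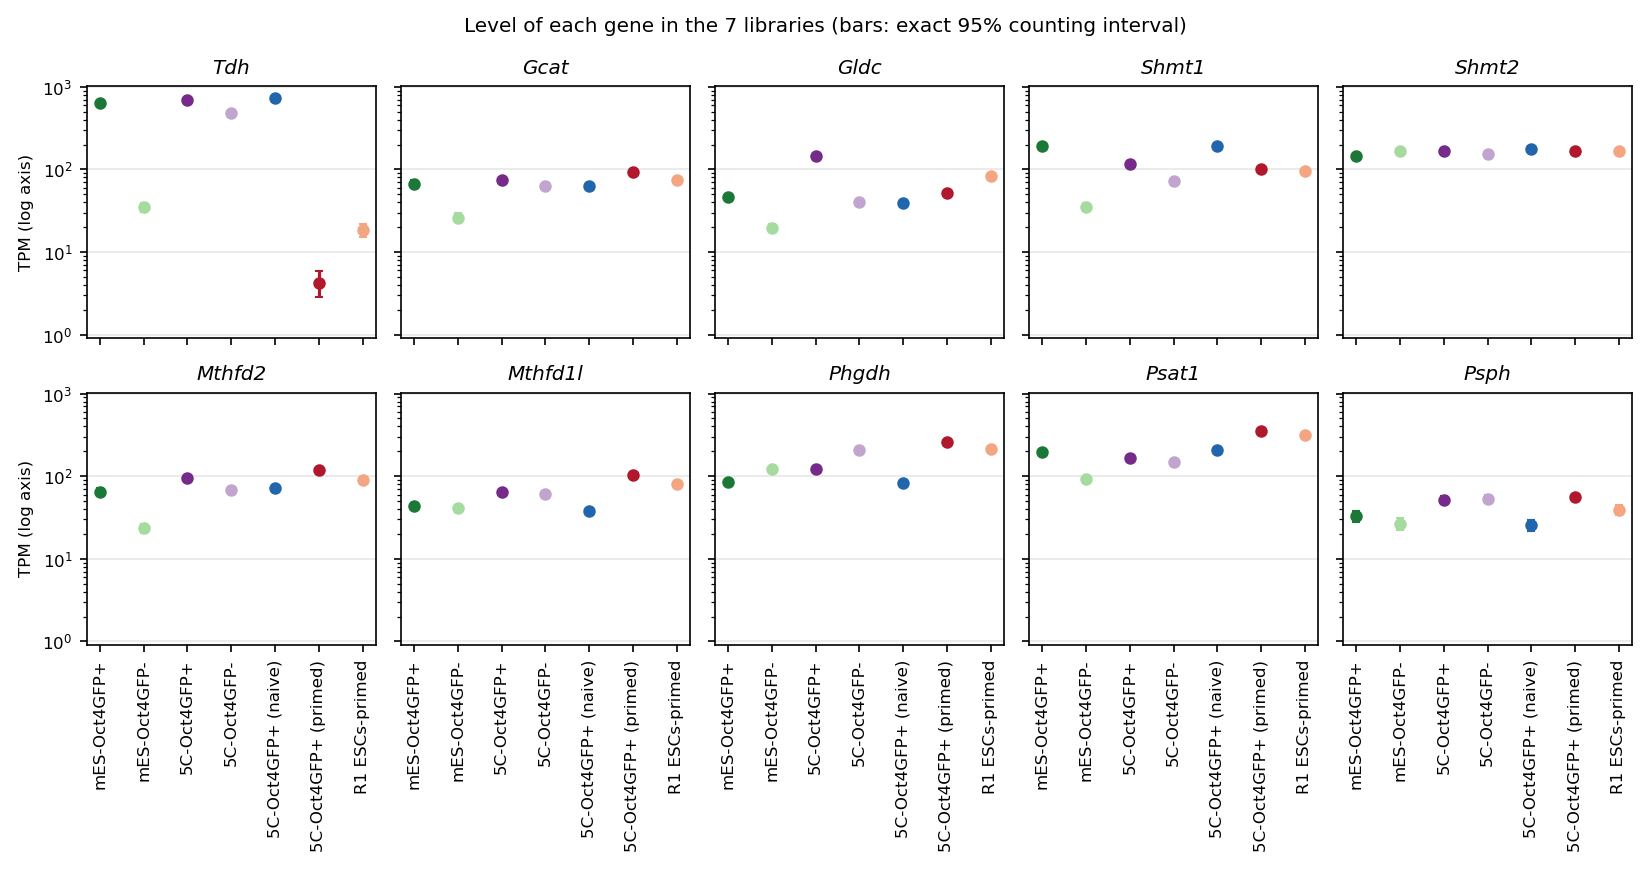
Level of each of the 10 genes in TPM (log axis) in the 7 libraries, 1 point per library, with bars for the exact 95% counting interval. *Tdh* falls from 725 TPM in 5C-Oct4GFP+ (naive) to 4.18 TPM in 5C-Oct4GFP+ (primed), while *Shmt2* stays between 145 and 177 TPM.

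Of the 10 genes, 6 had their highest level in 5C-Oct4GFP+ (primed), namely *Gcat*, *Mthfd2*, *Mthfd1l*, *Phgdh*, *Psat1* and *Psph*, the last of them only 1.034-fold (0.897 to 1.19) above 5C-Oct4GFP-, an interval that included 1, and 5 had their lowest level in mES-Oct4GFP-, namely *Gcat*, *Gldc*, *Shmt1*, *Mthfd2* and *Psat1*. The 10 levels summed to 1512 TPM in mES-Oct4GFP+ against 586 TPM in mES-Oct4GFP-, and 1701 TPM in 5C-Oct4GFP+ against 1347 TPM in 5C-Oct4GFP-, then 1621 TPM in 5C-Oct4GFP+ (naive), 1314 TPM in 5C-Oct4GFP+ (primed) and 1183 TPM in R1 ESCs-primed. *Tdh* made up between 35.7% and 44.7% of this sum in the 4 libraries with high *Tdh*, 5.91% in mES-Oct4GFP-, 1.56% in R1 ESCs-primed and 0.318% in 5C-Oct4GFP+ (primed). The 3 serine synthesis genes summed to between 241 and 410 TPM in the 4 sorted libraries and 5C-Oct4GFP+ (naive), and to 673 TPM in 5C-Oct4GFP+ (primed) and 570 TPM in R1 ESCs-primed. The sums of both primed libraries were hence below those of the other libraries apart from mES-Oct4GFP-, and their make-up was another. The sums of 5C-Oct4GFP+ (primed) and 5C-Oct4GFP-, at 1314 and 1347 TPM, were close, and their order depends on the scaling between libraries.

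**Figure D2:**
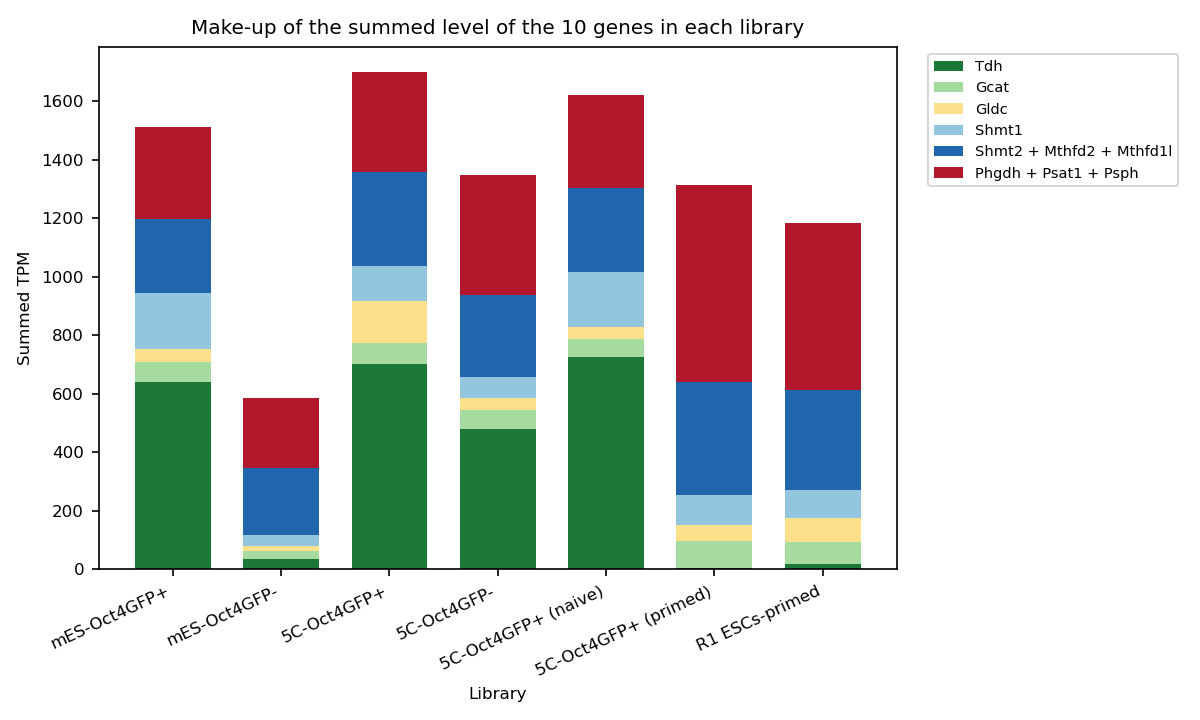
Summed TPM of the 10 genes in each library, stacked by gene or group of genes, with 1 bar per library from 0. *Tdh* takes 44.7% of the bar in 5C-Oct4GFP+ (naive) and 0.318% in 5C-Oct4GFP+ (primed), where serine synthesis genes reach 673 TPM.

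The first comparison asked how the genes differed between cells that had and had not switched on the reporter in mES medium. In mES-Oct4GFP+ cells, *Tdh* was 18.5-fold (16.3 to 21.0) higher than in mES-Oct4GFP- cells, *Shmt1* 5.41-fold (4.78 to 6.13), *Mthfd2* 2.79-fold (2.36 to 3.31), *Gcat* 2.58-fold (2.20 to 3.03), *Gldc* 2.35-fold (2.04 to 2.71) and *Psat1* 2.13-fold (1.97 to 2.31). These 6 of 10 were called higher, against 17.9% of the 16294 genes compared, and 0 were called lower, against 28.8%. *Phgdh* went the other way without reaching 2-fold, at 1.44-fold (1.29 to 1.60) higher in mES-Oct4GFP-. The median difference of the 10 genes was 1.14 on the log2 scale, and that of all genes was -0.154. Markers of other cells and of proliferation moved with this result. Of 6 proliferation markers, 5 were called higher in mES-Oct4GFP+, with sums of 1987 TPM against 634 TPM. All 7 fibroblast and feeder markers were called lower, with sums of 14.3 TPM in mES-Oct4GFP+ against 515 TPM in mES-Oct4GFP-. All 4 primitive endoderm markers were called lower, with sums of 10.1 TPM against 165 TPM. So were 3 of 4 macrophage markers, with sums of 13.1 TPM against 57.7 TPM, of which the highest gene made up 12.9 TPM and 50.4 TPM. Their part in the result was not tested.

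The same comparison in 5C medium gave 1 call. *Gldc* was 3.54-fold (3.25 to 3.86) higher in 5C-Oct4GFP+ than in 5C-Oct4GFP- cells, and the differences of the other 9 genes stayed under 2-fold. This was 1 of 10 called higher, against 8.45% of the 15675 genes compared, and 0 called lower, against 22.6%. Of all called genes, 27.2% were higher, and 37.2% after rescaling by the median of ratios. *Tdh* was 1.46-fold (1.40 to 1.52) higher in 5C-Oct4GFP+, *Shmt1* 1.64-fold (1.50 to 1.80) and *Mthfd2* 1.41-fold (1.27 to 1.56), and *Phgdh* was 1.73-fold (1.61 to 1.86) higher in 5C-Oct4GFP-. Of the 6 proliferation markers, 0 were called, with sums of 1878 TPM in 5C-Oct4GFP+ against 1499 TPM in 5C-Oct4GFP-. All 7 fibroblast and feeder markers were called lower in 5C-Oct4GFP+, with sums of 12.3 TPM against 253 TPM, and 3 of 4 primitive endoderm markers were called lower, with sums of 2.64 TPM against 18.0 TPM. Of the macrophage markers, 1 of 4 was called higher in 5C-Oct4GFP+, with sums of 43.0 TPM against 20.4 TPM. Their part in the result was not tested.

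The level of *Tdh* in 5C-Oct4GFP- cells was 68.7% (66.0 to 71.5) of that in 5C-Oct4GFP+ cells, whereas in mES medium it was 5.41% (4.76 to 6.13). Among 8 pluripotency markers, the level in 5C-Oct4GFP- was 63.2% of that in 5C-Oct4GFP+ for *Pou5f1*, 47.2% for *Nanog*, 28.8% for *Sall4*, 28.4% for *Tfcp2l1*, 10.2% for *Tbx3*, 9.67% for *Utf1*, 6.64% for *Esrrb* and 6.43% for *Zfp42*. *Tdh* was thus higher in relative level in 5C-Oct4GFP- cells than each of these 8 genes. In mES medium the corresponding values were 276% for *Pou5f1*, 45.6% for *Utf1*, 20.4% for *Sall4*, 8.62% for *Tbx3*, 5.60% for *Tfcp2l1*, 2.46% for *Nanog*, 0.512% for *Esrrb* and 0.389% for *Zfp42*. The value for *Tdh* was there below 4 of the 8 markers and above 3, and its interval overlapped that of *Tfcp2l1* (5.07 to 6.17).

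**Figure D3:**
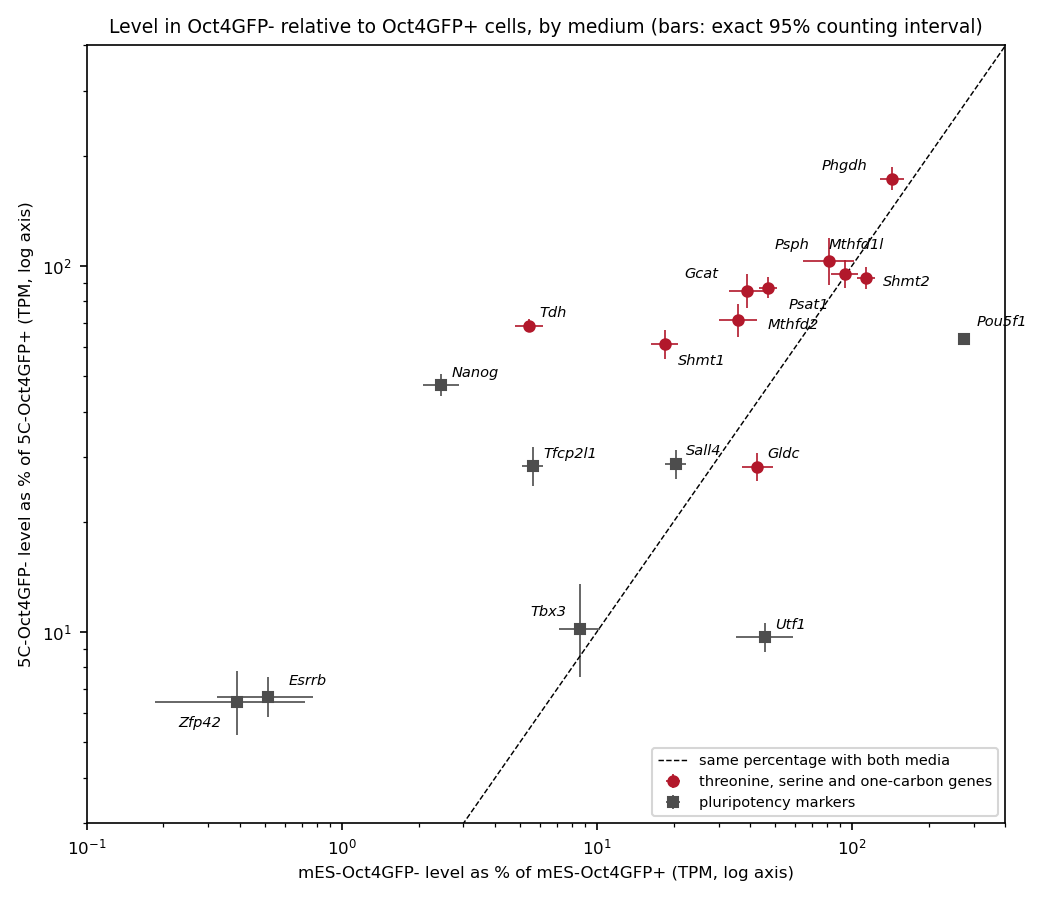
Level in Oct4GFP- cells as a percentage of the level in Oct4GFP+ cells, in mES medium (horizontal, log axis) and 5C medium (vertical, log axis), for the 10 genes (circles) and 8 pluripotency markers (squares), with exact 95% counting intervals and a dashed line of equal percentages. *Tdh* lies far above the line, at 5.41% in mES medium and 68.7% in 5C medium, and *Gldc* lies below it.

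Comparing the media in cells of the same reporter class gave 1 call in Oct4GFP+ cells. Relative to mES-Oct4GFP+ cells, *Gldc* was 3.14-fold (2.87 to 3.44) higher in 5C-Oct4GFP+ cells and was the 1 of 10 called higher, against 13.7% of the 15196 genes compared, with 0 called lower, against 13.5%. *Shmt1* was 1.62-fold (1.50 to 1.75) higher in mES-Oct4GFP+, and *Tdh* differed by 1.09-fold (1.05 to 1.14). Of the 10 log2 differences, 8 lay above 0 and 2 below, those of *Shmt1* and *Psat1*. Their median was 0.346, against -0.0605 for all genes. Below the threshold, *Psph* was higher in 5C-Oct4GFP+ by 0.657, *Mthfd1l* by 0.538, *Mthfd2* by 0.533 and *Phgdh* by 0.503. Of the 6 proliferation markers, 0 were called, with sums of 1878 TPM in 5C-Oct4GFP+ against 1987 TPM in mES-Oct4GFP+, and of the 7 fibroblast and feeder markers 1 was called higher and 2 lower, with sums of 12.3 TPM against 14.3 TPM. All 5 primed markers were called higher in 5C-Oct4GFP+, with sums of 280 TPM against 14.3 TPM. Of the macrophage markers, 1 of 4 was called higher in 5C-Oct4GFP+, with sums of 43.0 TPM against 13.1 TPM. The part of these markers in the result was not tested.

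In Oct4GFP- cells the media differed more, and mES-Oct4GFP- cells were the base of the ratios. *Tdh* was 13.9-fold (12.3 to 15.8) higher in 5C-Oct4GFP- cells, the difference of rank 66 by size among 15859 genes compared. *Mthfd2* was 2.88-fold (2.45 to 3.39) higher, *Gcat* 2.40-fold (2.06 to 2.81), *Gldc* 2.08-fold (1.82 to 2.39) and *Shmt1* 2.04-fold (1.79 to 2.34). These 5 of 10 were called higher, against 9.68% of all genes, and 0 were called lower, against 10.1%. *Psph*, with a log2 difference of 0.993, lay just under the threshold, and *Shmt1* and *Gldc*, at 1.01 and 1.02, lay just above it. The calls of *Shmt1* and *Gldc* were lost with a pseudocount of 5 and with rescaling by the median of ratios. Of 8 pluripotency markers, 4 were called higher in 5C-Oct4GFP-, namely *Nanog*, *Utf1*, *Esrrb* and *Zfp42*, and 1 lower, *Pou5f1*. *Nanog* had 119.5 against 17.1 TPM, and *Pou5f1* had 1534 against 3640 TPM. Of 6 proliferation markers, 5 were called higher in 5C-Oct4GFP-, with sums of 1499 TPM against 634 TPM, and of 7 fibroblast and feeder markers 5 were called lower and 1 higher, with sums of 253 TPM against 515 TPM. All 4 primitive endoderm markers were called lower as well, with sums of 18.0 TPM against 165 TPM. So were 3 of 4 macrophage markers, with sums of 20.4 TPM against 57.7 TPM, of which the highest gene made up 20.1 TPM and 50.4 TPM. Their part in the result was not tested.

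Conversion of 5C-Oct4GFP+ cells to the naive state was accompanied by lower *Gldc*, at 0.268 of its former level (0.247 to 0.292), and lower *Psph*, at 0.490 (0.408 to 0.586). These were 2 of 10 called lower, against 17.5% of the 14863 genes compared, with 0 called higher, against 10%. The log2 difference of *Psph* only just reached the threshold, and its call was lost with FPKM, with a pseudocount of 5 and with rescaling. *Tdh* differed by 1.04-fold, with 725 TPM after and 700.3 TPM before the conversion. All 5 primed markers were called lower after the conversion, with sums of 17.6 TPM against 280 TPM.

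After conversion to the primed state, *Tdh* was lower by 7.08 on the log2 scale, the difference of rank 14 by size among 15067 genes compared, and its level in 5C-Oct4GFP+ was 167.5-fold (120 to 242) that in 5C-Oct4GFP+ (primed). *Gldc* was lower as well, at 0.364 of its former level (0.340 to 0.389), while *Phgdh* was 2.16-fold (2.02 to 2.31) and *Psat1* 2.12-fold (2.02 to 2.23) higher. That was 2 of 10 called higher, against 13.7% of all genes, and 2 called lower, against 16.1%. *Mthfd1l* reached 1.62-fold (1.51 to 1.74) without a call, and *Psph*, 1.06-fold (0.933 to 1.21), did not differ beyond counting error. Of 7 fibroblast and feeder markers, 6 were called higher in 5C-Oct4GFP+ (primed), with sums of 74.1 TPM against 12.3 TPM, and all 4 primitive endoderm markers were called higher, with sums of 100.4 TPM against 2.64 TPM. None of these 11 markers was at 0 in 5C-Oct4GFP+ (primed), and their part in the result was not tested. The summed level of the proliferation markers was 2178 TPM against 1878 TPM, with 0 of 6 called.

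The comparison of the naive with the primed cells covers both conversions and shares their libraries. *Tdh* was 173.5-fold (124 to 251) higher in 5C-Oct4GFP+ (naive), the difference of rank 19 by size among 15249 genes compared. *Phgdh* was 3.17-fold (2.92 to 3.45), *Mthfd1l* 2.69-fold (2.46 to 2.94) and *Psph* 2.17-fold (1.82 to 2.60) higher in 5C-Oct4GFP+ (primed). In the direction of naive over primed, 1 of 10 was called higher, against 16.7% of all genes, and 3 were called lower, against 22.2%. The call of *Psph* was lost with a pseudocount of 5 and with rescaling, which left 2. *Shmt1*, at 1.86-fold (1.73 to 2.003) higher in the naive cells, was not called, but passed the threshold after rescaling. *Psat1* was 1.72-fold (1.63 to 1.80) and *Mthfd2* 1.64-fold (1.50 to 1.80) higher in the primed cells. Of the 7 fibroblast and feeder markers, 6 were called lower in the naive cells, with sums of 8.48 TPM against 74.1 TPM, and all 4 primitive endoderm markers were called lower, with sums of 3.70 TPM against 100.4 TPM, and their part in the result was not tested.

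The converted cells were also set against cells that had reached a similar state by another way. Between 5C-Oct4GFP+ (naive) and mES-Oct4GFP+ cells, 0 of the 10 genes were called higher, against 2.49% of the 14477 genes compared, and 0 were called lower, against 6.27%. Of all called genes 28.4% were higher, and 42.5% after rescaling. The ratios ran from 0.782 (0.625 to 0.979) for *Psph* to 1.22 (1.13 to 1.32) for *Shmt2*. Between 5C-Oct4GFP+ (primed) and R1 ESCs-primed, 0 of 10 were called higher, against 2.30% of the 14600 genes compared, and 1 was called lower, against 5.09%. The gene called was *Tdh*, at 0.227 (0.150 to 0.334) of its level in R1 ESCs-primed, the difference of rank 144 by size, although both levels were low. *Gldc* was 1.58-fold (1.46 to 1.71) higher in R1 ESCs-primed. The fibroblast and feeder markers summed to 209 TPM in R1 ESCs-primed and 74.1 TPM in 5C-Oct4GFP+ (primed), with 6 of 7 called lower in the latter, and their part in the result was not tested.

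**Figure D4:**
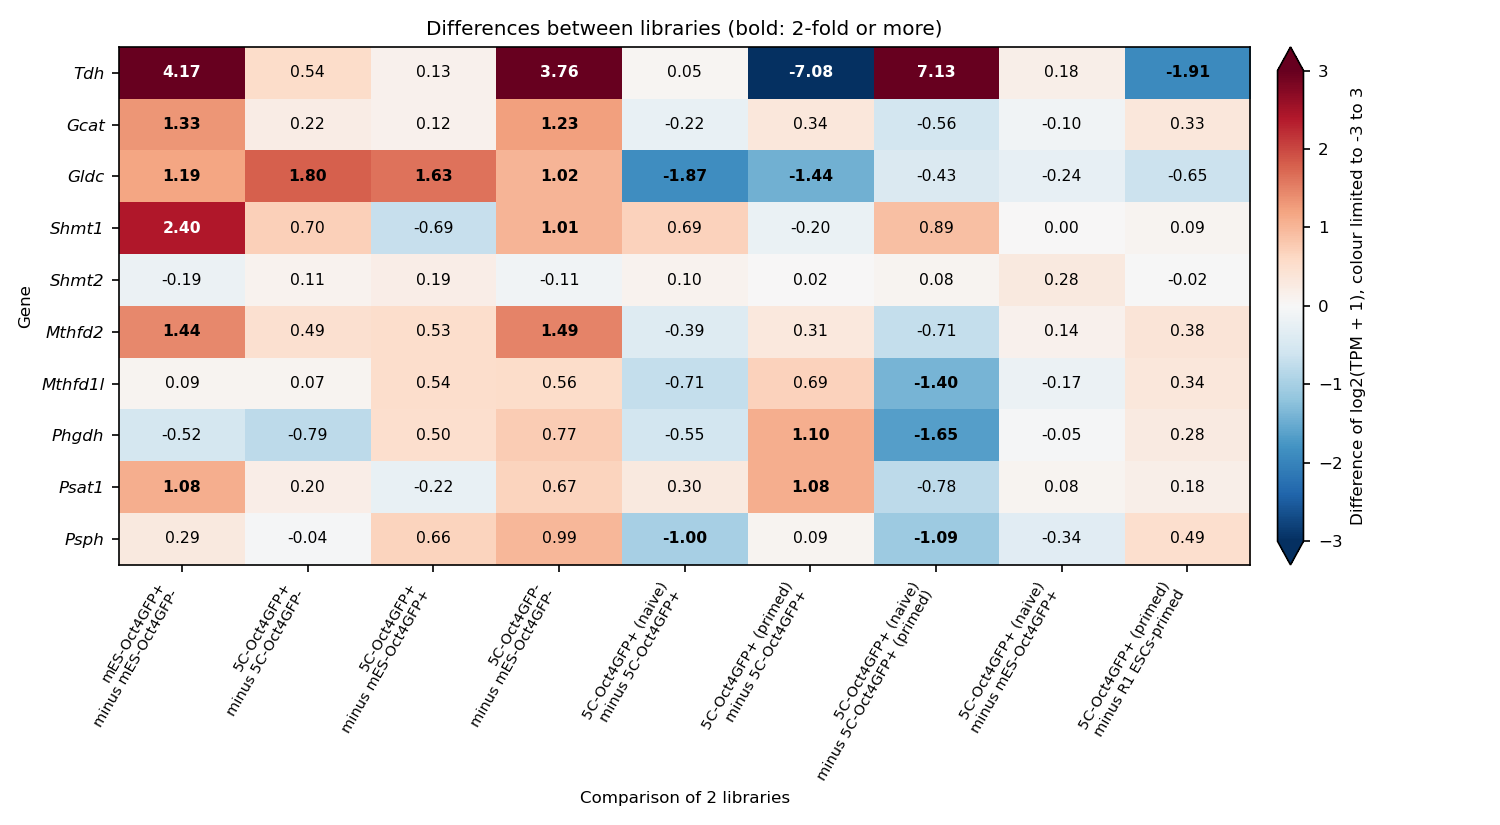
Difference of log2(TPM + 1) between 2 libraries for the 10 genes (rows) in 9 comparisons (columns), with red for higher and blue for lower in the library named first, colours limited to -3 to 3, and bold values at 2-fold or more. *Tdh* ranges from -7.08 to 7.13, and the column of 5C-Oct4GFP+ (naive) minus mES-Oct4GFP+ has no bold value.

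The 9 comparisons share libraries, so that calls in different comparisons are not independent. TPM depends on the other genes of a library. Rescaling by the median of ratios moved the median difference of all genes up by 0.15 between mES-Oct4GFP+ and mES-Oct4GFP-, by 0.21 between 5C-Oct4GFP+ and 5C-Oct4GFP-, by 0.11 between 5C-Oct4GFP+ (naive) and 5C-Oct4GFP+, by 0.17 between the naive and primed cells and by 0.16 between 5C-Oct4GFP+ (naive) and mES-Oct4GFP+. On that scale the calls of *Tdh* stood in all comparisons in which they were made.

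Profiles over the 7 libraries were compared by the root-mean-square difference of log2(TPM + 1) after centring each gene on its mean. *Gcat* and *Mthfd2* were the most alike of the 10 genes, at 0.184, followed by *Mthfd1l* and *Psph*, at 0.292, and *Phgdh* and *Mthfd1l*, at 0.297. The nearest of the 10 to *Tdh* was *Shmt1*, at 2.51, and *Tdh* was the farthest gene for each of the other 9. Among 13566 genes that reached a TPM of 5 in 1 or more libraries, the 5 genes outside the lists nearest to *Tdh* were *Nr0b1*, at 0.763, *Morc1*, at 0.782, *Nr5a2*, at 0.796, *Gm13212*, at 0.809, and *AI662270*, at 0.840. Of these, *Nr5a2*, a nuclear receptor, was at least as high in 5C-Oct4GFP- as in 5C-Oct4GFP+, with 53.9 and 49.4 TPM, while *Nr0b1* had 19.9 and 135.5 TPM. Of the pluripotency markers, *Esrrb*, *Tbx3*, *Zfp42* and *Tfcp2l1* took ranks 40, 64, 69 and 82 in this order. The other pluripotency markers were farther away, with *Nanog* at rank 874, *Sall4* at 7244, *Pou5f1* at 7656 and *Utf1* at 12707.

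*Bhmt*, which encodes an enzyme that passes a methyl group from betaine to homocysteine, was the nearest to *Tdh* of the other metabolic genes listed, at rank 21. Its level was 15.9 TPM in mES-Oct4GFP+ against 1.39 TPM in mES-Oct4GFP-, and 22.2 TPM in 5C-Oct4GFP+ against 49.0 TPM in 5C-Oct4GFP-, then 10.3 TPM in 5C-Oct4GFP+ (naive), and it was listed at 0 in 5C-Oct4GFP+ (primed) and R1 ESCs-primed, where 3 counts would have given 0.157 and 0.256 TPM. It was thus highest in 5C-Oct4GFP- cells, 35.2-fold (20.8 to 65.0) above mES-Oct4GFP-. Of the 9 genes of the methionine cycle and transsulfuration, 4 were called higher and 0 lower in mES-Oct4GFP+ than in mES-Oct4GFP-, against 17.9% and 28.8% of all genes, with *Cbs*, which joins serine and homocysteine, highest by difference, at 71.3 against 4.77 TPM. In 5C-Oct4GFP+ against 5C-Oct4GFP- cells 2 were called higher, among them *Cbs*, and 1 lower, *Bhmt*, against 8.45% and 22.6% of all genes. *Mat2a*, which makes the methyl donor S-adenosylmethionine, was the 1 of 9 called lower between the media in Oct4GFP+ cells, against 13.5% of all genes, at 348 TPM in mES-Oct4GFP+ and 109 TPM in 5C-Oct4GFP+. *Cth*, which cleaves cystathionine to cysteine, had 203 TPM in 5C-Oct4GFP+, 14.4 TPM in 5C-Oct4GFP+ (primed) and 32.6 TPM in R1 ESCs-primed.

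Of the 6 other genes of glycine cleavage and threonine breakdown, 1 was called higher and 3 lower in mES-Oct4GFP+ than in mES-Oct4GFP-, against 17.9% and 28.8% of all genes, and 1 higher and 2 lower in 5C-Oct4GFP+ than in 5C-Oct4GFP-, against 8.45% and 22.6%. *Amt* was the gene called higher in both, and it was called higher in naive than in primed cells, at 123 against 26.5 TPM. *Tha1*, a threonine aldolase and so another route from threonine to glycine, was low in all libraries, with 9.13 TPM in 5C-Oct4GFP- at most and between 0.31 and 1.78 TPM in the 5 libraries that were not Oct4GFP-. The serine dehydratase genes *Sds* and *Sdsl* reached at most 1.25 and 4.13 TPM, both in mES-Oct4GFP-. *Sds*, 1 of the 3 genes called lower in mES medium, rested on 2 estimated reads there and was listed at 0 in the other 6 libraries, so that its call is within the limit that a count of 0 allows.

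Among 14 genes of folate enzymes and transport, 4 were called higher and 3 lower in mES-Oct4GFP+ than in mES-Oct4GFP-, against 17.9% and 28.8% of all genes. In 5C-Oct4GFP+ against 5C-Oct4GFP- cells 0 were higher and 3 lower, against 8.45% and 22.6%, and between 5C-Oct4GFP- and mES-Oct4GFP- 4 were higher and 1 lower, against 9.68% and 10.1%. *Aldh1l1*, which removes one-carbon units by oxidation in the cytosol, had 24.0 TPM in mES-Oct4GFP+ against 2.08 TPM in mES-Oct4GFP-, and also 20.2 TPM in 5C-Oct4GFP+ (naive) and 4.43 TPM in 5C-Oct4GFP+ (primed). *Mthfd2l*, a paralog of *Mthfd2*, had 15.1 TPM in 5C-Oct4GFP-, 3.48 TPM in 5C-Oct4GFP+, 1.86 TPM in 5C-Oct4GFP+ (naive) and 10.8 TPM in 5C-Oct4GFP+ (primed). *Sfxn1*, a mitochondrial carrier of serine, had 25.6 TPM in mES-Oct4GFP+ and 27.2 TPM in 5C-Oct4GFP+ (naive) against 79.4 to 99.8 TPM in both Oct4GFP- and both primed libraries, with 46.4 TPM in 5C-Oct4GFP+. *Ggh*, *Mthfs* and *Aldh1l2* made up the other largest calls of the list, with at most 30.3, 17.1 and 8.36 TPM. Between 5C-Oct4GFP+ (naive) and mES-Oct4GFP+, 0 of the 14 were called in either direction, against 2.49% of all genes higher and 6.27% lower. Between 5C-Oct4GFP+ (primed) and R1 ESCs-primed 0 were called as well, against 2.30% and 5.09%.

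Of 6 genes of de novo purine synthesis, which uses one-carbon units, 2 were called higher in mES-Oct4GFP+ than in mES-Oct4GFP-, against 17.9% of all genes, *Pfas* with the larger difference at 55.9 against 22.7 TPM. In the other 8 comparisons 0 were called, against between 2.30% and 22.6% of all genes in a given direction. Among *Atf4*, a regulator of amino acid genes, and 6 of its known targets, 3 were called higher in mES-Oct4GFP+ than in mES-Oct4GFP-, against 17.9% of all genes, and 3 in 5C-Oct4GFP+ than in 5C-Oct4GFP-, against 8.45%. Called lower were 0 in each comparison, against 28.8% and 22.6%. In mES medium 3 differences lay above 0 and 4 below, with a median of -0.0327 against -0.154 for all genes. In 5C medium all 7 lay above 0, with a median of 0.507 against -0.252. *Asns*, asparagine synthetase, had 790 TPM in mES-Oct4GFP+ and 657 TPM in 5C-Oct4GFP+ (naive), against 154 TPM in 5C-Oct4GFP+ and 86.9 to 215 TPM in the other 4 libraries. *Chac1*, which degrades glutathione, had 19.3 TPM in 5C-Oct4GFP+ (primed) and 26.2 TPM in 5C-Oct4GFP+, and between 4.23 and 7.81 TPM in the other 5. *Trib3* was called higher with 5C than with mES medium in Oct4GFP- cells, at 13.3 against 5.22 TPM, and in 5C-Oct4GFP+ (primed) than in R1 ESCs-primed, at 35.6 against 13.4 TPM. *Atf4* itself was between 260 and 429 TPM in the 7 libraries.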

How the data were processed

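RNA-Seq was analysed in 7 mouse libraries, 1 per group. Total RNA was made into TruSeq libraries by the authors, who used a MiSeq and assigned reads to transcripts with RSEM. The submitters' processing notes also name Bowtie and the mm10 build, and versions are not given in the sources used here. Expected counts in the deposited tables are estimates of reads per Ensembl gene without normalization. The authors' TPM values are scaled by effective length to the same sum in each library, and the deposited FPKM values by effective length and mapped fragments.

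Genes were matched by Ensembl identifier (GENCODE M21, GRCm38). Differences of log2(TPM + 1), with a pseudocount of 1, were called at 2-fold where 1 or both libraries reached a TPM of 1. Exact Clopper-Pearson intervals (95%) used expected counts rounded to whole numbers. Groups were taken from the labels, and 9 comparisons were made. With 1 library per group no model was fitted, and no p-value is given. Total expected counts ran from 6108252 to 11496615. The members and lists were chosen with earlier results of these data known. The genes named were the 10 members, the gene with the largest rise and the largest fall among those called in each other list and comparison, and the 5 genes nearest to *Tdh*. The promoter motifs were TGATGNAA and CACGTG, and CCAAT was added after the data had been seen. Alternatives were FPKM, pseudocounts of 0.1 and 5, a minimum of 5 TPM, no filter, and median-of-ratios rescaling. Scripts were tested on simulated data. The tools were scipy 1.17.1, pandas 2.3.3, numpy 2.4.6 and matplotlib 3.10.9 under Python 3.11.15.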

Additional observations from a re-analysis of the deposited data

Results flagged for a closer look

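Some genes moved in opposite directions in a pair of comparisons of the same kind. The difference between the comparisons was not tested, since each library is 1 sample. Between 5C and mES medium, *Shmt1* differed by -0.69 in Oct4GFP+ cells and by 1.01 in Oct4GFP- cells on the log2 scale, a gap of -1.70. For *Psat1* the values were -0.22 and 0.67, a gap of -0.89, and for *Shmt2* 0.19 and -0.11, a gap of 0.30. Taken between the reporter classes, the same 4 values of *Shmt2* give a gap of -0.30, which is the same quantity with its sign turned and no further observation.

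After conversion of 5C-Oct4GFP+ cells, the naive and primed cells moved in opposite directions in *Tdh*, *Psph* and 5 other genes. The naive minus the primed difference was 7.13 for *Tdh* and -1.09 for *Psph*. For *Tdh* the change to the naive state was only 0.05, and for *Psph* the change to the primed state was only 0.09. That of *Psph* was within counting error, so its direction is not established. In the 5 other genes the difference was -1.65 for *Phgdh*, -1.40 for *Mthfd1l*, -0.71 for *Mthfd2*, -0.56 for *Gcat* and 0.89 for *Shmt1*. Both conversions are measured from the same 5C-Oct4GFP+ library, so a value of that library that is off would shift both in the same direction.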

How the results depend on the processing

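Of 90 differences of the 10 genes, all kept their direction where they were called, and 89 kept their side of the threshold with FPKM, 89 with a pseudocount of 0.1, 86 with a pseudocount of 5, 90 with a minimum of 5 TPM, 90 without a filter and 85 with rescaling by the median of ratios. The number of genes called higher with 5C than with mES medium in Oct4GFP- cells went from 5 to 3 with a pseudocount of 5 and to 3 with rescaling. The number called lower in 5C-Oct4GFP+ (naive) than in 5C-Oct4GFP+ cells went from 2 to 1 with FPKM, to 1 with a pseudocount of 5 and to 1 with rescaling. The number called higher in naive than in primed cells went from 1 to 2 with rescaling. These genes lay close to the threshold, and the cause was not tested. The call of *Psph* between naive and primed cells was lost with a pseudocount of 5 and with rescaling, at -0.99 and -0.91. No paired analysis was possible because each group was 1 library. Depth limits *Tdh* most, with 34 counts in 5C-Oct4GFP+ (primed). The spread between cultures is unknown.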
